A study of Arabidopsis thaliana with 7 samples.

Results

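The genes described here are those whose transcripts gave a signal well above background in wild-type Arabidopsis thaliana seedlings and, on most arrays, not in seedlings that express MYB106 fused to the VP16 activation domain. A gene was taken if its probe was flagged well above background on all 3 wild-type arrays and on at most 1 of the 4 35S:MYB106VP16 arrays. The genes were thus selected on the background flags of both genotypes. This gave 111 of 25347 genes on the array. All 111 were among the 20509 genes that passed the filter on dim probes, which they passed through the wild-type arrays. Because the genotypes themselves chose these genes, their lower signal in 35S:MYB106VP16 is a description. No p-value is printed for any of them, and a count of calls among them stands beside the share over all genes tested with nothing read from it.

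MYB106 is a MIXTA-like MYB transcription factor that shapes epidermal cells and promotes cuticle formation. VP16 is a strong viral activation domain, and the 35S promoter drives the fusion in most cells of the plant, not only in the epidermis where MYB106 normally acts. The arrays carry probes against most Arabidopsis genes, and the scanner software flags each spot as well above background or not, from its signal and the spread of the background.

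The 4 35S:MYB106VP16 samples and the 3 wild-type samples were whole seedlings of the Columbia-0 accession, 3 weeks old, raised on MS agar with sucrose under long days. Each RNA extract pooled several seedlings of a plate. Whether the replicates came from separate plates or the transgenic plants from several lines is not stated in the sources used. The p-values below therefore reflect the spread among these 7 samples alone, and that spread may be technical. The 4 35S:MYB106VP16 arrays lay on 1 slide and the 3 wild-type arrays on another, so slide and genotype cannot be told apart. In whole seedlings, fewer cells of a type and less RNA per cell cannot be told apart either.

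Signals are given as log2 of the processed spot signal relative to the 75th percentile of the same array, so that more negative values are dimmer. The transgene was plain in the arrays: MYB106 stood at 3.08, 3.29, 3.48 and 2.56 in 35S:MYB106VP16, against -2.53, -2.86 and -2.41 in wild type. Between 74.9% and 76.3% of probes were well above background on the 35S:MYB106VP16 arrays, against 73.5% to 75.8% on the wild-type arrays. At a limma adjusted p under 0.05, 5083 genes were called lower in 35S:MYB106VP16 and 5768 were called higher. The share of higher genes among these calls was 53.2%, but 66.6% when arrays were scaled to their median, 76.2% with the authors' deposited table and 5.21% when scaled to spike-in transcripts. All 10 mesophyll, 12 root and 7 guard-cell markers were well above background on the 3 wild-type arrays, which fits the label of whole seedlings.

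Loss of the flag did not mean loss of all signal. Of the 111 genes, 58 were flagged on 0 of 4 35S:MYB106VP16 arrays and 53 on 1 of 4. The flagged array of those 53 was 35S:MYB106VP16 replicate 1 for 5 genes, replicate 2 for 14, replicate 3 for 7 and replicate 4 for 27. By the scanner software's weaker flag, a signal positive and significant against background, 89 of the 111 genes were still positive on all 4 35S:MYB106VP16 arrays, and 412 of the 444 single values were. At most 3.27% of negative control spots were positive by that flag on the 35S:MYB106VP16 arrays, against at most 3.92% on the wild-type arrays. The label "detected only in wild type" therefore holds for the stricter flag alone, and the genes are called not well above background below.

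The median of the 111 genes was -7.97, -7.88, -8.08 and -7.76 on the 35S:MYB106VP16 arrays, against -6.40, -6.67 and -6.64 on the wild-type arrays. The median negative control spot lay lower in both genotypes, at -9.77 to -9.49 in 35S:MYB106VP16 and -9.83 to -9.57 in wild type. The genes thus sat between background and the dimmest reliable signals in 35S:MYB106VP16, and just above that limit in wild type.

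**Figure D1:**
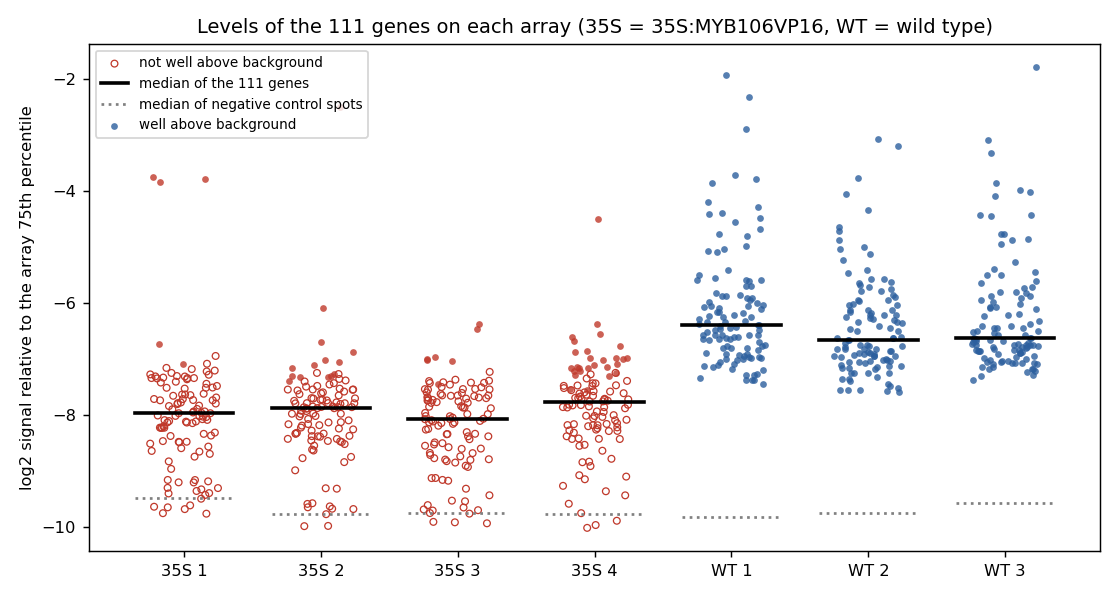
Level of each of the 111 genes on each array (vertical axis, log2 signal relative to the array's 75th percentile), with 4 35S:MYB106VP16 arrays on the left and 3 wild-type arrays on the right. Filled points are well above background and open points are not, the black bar is the median of the 111 genes and the dotted bar the median negative control spot. The medians lie at -8.08 to -7.76 in 35S:MYB106VP16 and at -6.67 to -6.40 in wild type, and both lie above the negative controls.

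The mean signal in 35S:MYB106VP16 minus that in wild type had a median of -1.54 over the 111 genes and ranged from -4.84 to -0.16, beside a median of 0.02 over all genes tested. In that fit 94 of the 111 genes were called lower and 17 were not called, where 24.8% of all genes tested were called lower. The groups did not overlap for 93 of them, with 35S:MYB106VP16 lower, as for 27.2% of all genes tested, while 30.4% of all genes tested did not overlap with 35S:MYB106VP16 higher. The same signals chose the genes, so nothing is read from either count. Separation or overlap of the groups for single genes among the 111, given below, is likewise only a description. Genes flagged on 0 of 4 35S:MYB106VP16 arrays had a median difference of -1.73, and those flagged on 1 of 4 had -1.31. The 75 genes just outside, flagged on 2 of 4, had a median difference of -0.92.

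The probes of the 111 genes were dim in wild type too. Their wild-type means ran from -7.31 to -3.02 with a median of -6.50, beside a median of -0.75 for all genes tested. By wild-type signal 95 of the 111 lay in the lowest 10% of genes tested and 109 in the lowest 20%. Signal depends on the probe as well as the transcript, so this describes brightness on the array, not abundance.

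**Figure D2:**
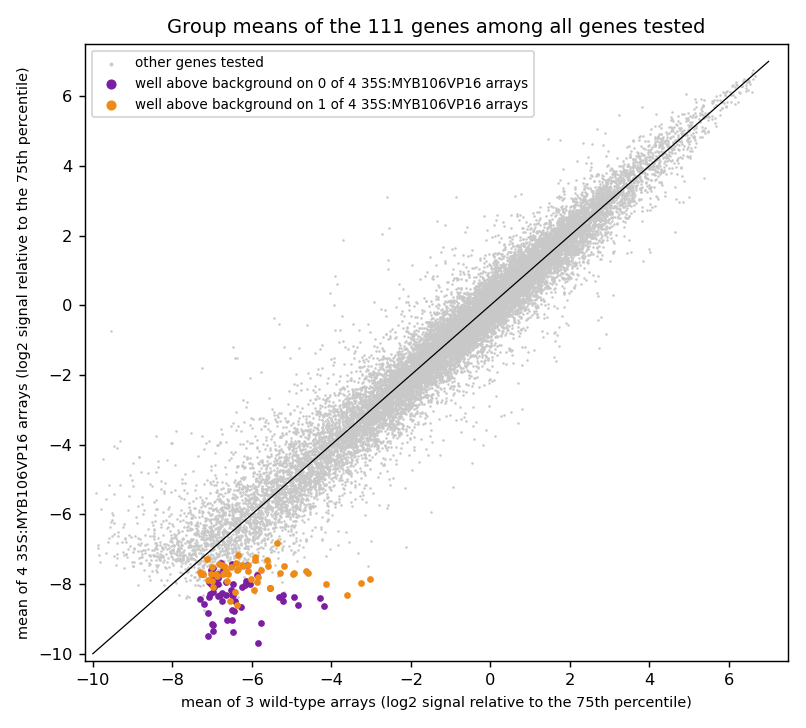
Mean log2 signal relative to the 75th percentile in 4 35S:MYB106VP16 arrays (vertical axis) against 3 wild-type arrays (horizontal axis) for every gene tested; the line marks equal means. The 111 genes (purple for 0 of 4 35S:MYB106VP16 arrays flagged, orange for 1 of 4) lie in the dim corner, with means of at most -6.81 in 35S:MYB106VP16 and at most -3.02 in wild type.

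For the 58 genes flagged on no 35S:MYB106VP16 array the fold is only a bound. It sets the wild-type mean against, on each 35S:MYB106VP16 array, either the signal of the probe itself or the dimmest signal flagged well above background, whichever is higher, and is written as "at least". These bounds ran from 1.25-fold to 9.998-fold with a median of 1.91-fold. They reached 2-fold for 28 genes, 4-fold for 8 and 5-fold for 6. A gene flagged on 1 of 4 arrays is given by its measured means instead.

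Transcription factors included the largest difference of all. MYB76, an R2R3-MYB activator of aliphatic glucosinolate synthesis, had -7.32, -7.17, -8.53 and -8.42 in 35S:MYB106VP16, against -2.89, -3.08 and -3.09 in wild type. Every 35S:MYB106VP16 array lay far below every wild-type array, and replicate 2 alone was flagged well above background. The mean was -7.86 ± 0.72 in 35S:MYB106VP16 and -3.02 ± 0.11 in wild type (SD, n = 4 and 3), a difference of -4.84. NIG1, a bHLH factor named for its induction by salt, had -7.97, -7.59, -8.14 and -7.14 in 35S:MYB106VP16, against -4.77, -5.24 and -4.88 in wild type, with replicate 4 alone flagged. MYB39, a MYB factor of suberin synthesis, had -9.31, -8.99, -9.61 and -9.59 in 35S:MYB106VP16, against -5.99, -6.35 and -7.10 in wild type. Its 35S:MYB106VP16 values were close to the negative controls, only 1 of the 4 was positive even by the weaker flag, and it was at least 2.19-fold lower.

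The MADS-box genes among the 111 were PHE1 and AGL46. PHE1, an imprinted gene of the endosperm, had -7.43, -6.70, -9.55 and -7.52 in 35S:MYB106VP16, against -5.86, -6.05 and -5.66 in wild type, with 1 of 4 arrays flagged. AGL46 had -7.19, -7.81, -7.54 and -7.28 in 35S:MYB106VP16, against -6.25, -6.03 and -6.11 in wild type, and was at least 2.45-fold lower. The groups did not overlap for either gene. SOM, a CCCH zinc-finger protein that represses germination in the dark, overlapped between groups: it had -7.63, -7.46, -8.07 and -6.68 in 35S:MYB106VP16, against -6.11, -5.96 and -6.69 in wild type.

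Enzymes of terpene synthesis made up a second set. Terpene synthases turn prenyl diphosphates into the volatile terpenes of leaves and flowers. TPS03, an ocimene synthase, had -7.97, -9.58, -9.71 and -7.25 in 35S:MYB106VP16, against -3.86, -4.72 and -3.98 in wild type, and was at least 9.98-fold lower. Its probe has 5 spots on each array. Of these, 2, 0, 0 and 1 were flagged on 35S:MYB106VP16 replicates 1 to 4 and all 5 on each wild-type array. A single spot of 35S:MYB106VP16 replicate 4 had a signal of 284, above every wild-type spot (79.6 to 188).

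TPS10, a monoterpene synthase, had -7.90, -8.28, -8.80 and -8.27 in 35S:MYB106VP16, against -4.55, -5.59 and -5.50 in wild type, and was at least 5.28-fold lower. TPS02, the direct neighbour of TPS03 on chromosome 4, had -8.49, -8.34, -9.69 and -7.73 in 35S:MYB106VP16, against -7.03, -7.40 and -7.18 in wild type, and was at least 1.33-fold lower. All 3 genes were separated between groups, as were 27.2% of all genes tested with 35S:MYB106VP16 lower, and nothing is read from this. TPS02 and TPS03 are close paralogs, and as probe sequences were not used here, signal shared between them could not be assessed.

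The 3 genes belong to a list of 22 terpene synthase names, of which 11 were matched to a gene on the array and the other 11 were not used. Of these 11 genes 9 were tested. Leaving out the 3 genes above, which the rule selected, 2 of the other 6 were lower in limma and 1 was higher, beside 24.8% lower and 28.1% higher over all genes tested, and their median difference was -0.58, beside 0.02. The 2 lower genes were the cineole synthase TPS-CIN, which fell by 1.06 ± 0.21 (SE, log2; limma adjusted p = 0.00486), and TPS12, which fell by 0.91 ± 0.17 (limma adjusted p = 0.00347). Neither lost its flag: both were well above background on all 7 arrays. The single call in the other direction was AT4G20210, which stood at -7.02, -6.22, -6.17 and -5.79 in 35S:MYB106VP16, against -7.20, -6.99 and -7.26 in wild type (limma adjusted p = 0.030).

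MYB76 belongs to the list of glucosinolate regulators and enzymes. Glucosinolates are sulphur-rich defence compounds of the Brassicaceae, made from methionine (aliphatic) or tryptophan (indolic). All 30 list genes on the array were tested. Leaving out MYB76, which the rule selected, 17 of 29 were lower in limma and 1 was higher, beside 24.8% lower and 28.1% higher over all genes tested, and their median difference was -0.78, beside 0.02. The aliphatic regulators MYB28 and MYB29, close relatives of MYB76, were lower but stayed well above background on all 7 arrays. MYB29 had -3.17, -3.89, -2.51 and -3.19 in 35S:MYB106VP16, against 0.24, 0.23 and 0.31 in wild type, a fall of 3.45 ± 0.28 (SE, log2; limma adjusted p = 0.000203). MYB28 fell by 1.01 ± 0.31 (limma adjusted p = 0.0261). The indolic regulators MYB34, MYB51 and MYB122 were not called, with differences of -0.33, 0.20 and 0.22. MYB76 was the only glucosinolate gene of the list among the 111.

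**Figure D3:**
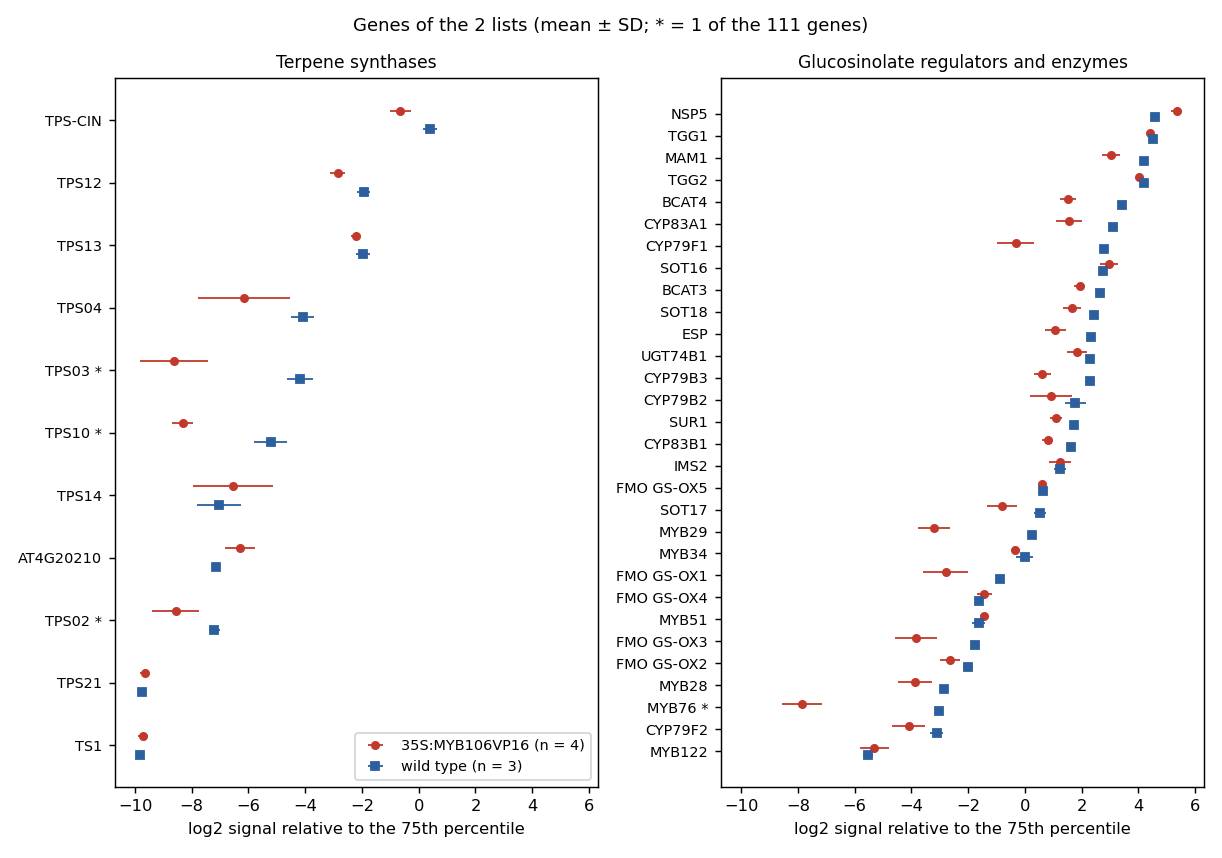
Mean ± SD log2 signal relative to the 75th percentile (horizontal axis) of the terpene synthases (left) and glucosinolate genes (right) on the array, with 35S:MYB106VP16 (circles, n = 4) above wild type (squares, n = 3, but 2 for CYP79F1, whose outlier spot was left out). Asterisks mark TPS02, TPS03, TPS10 and MYB76, which are among the 111 genes. MYB76 and TPS03 show the widest gaps of the asterisked genes, at -4.84 and -4.44.

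HAI2 was the other gene of the 111 found in any of 24 pathway lists. It encodes a protein phosphatase 2C that restrains abscisic acid signalling. It had -8.12, -6.10, -9.53 and -7.64 in 35S:MYB106VP16, against -5.88, -6.13 and -6.02 in wild type. Replicate 2 of 35S:MYB106VP16 reached the wild-type values, so the groups overlap. Of the other 19 tested genes on the abscisic acid and drought list, 5 were lower and 4 higher in limma, beside 24.8% lower and 28.1% higher over all genes tested. Its relative HAI1 was lower by 0.95 ± 0.16 (SE, log2; limma adjusted p = 0.00254), and HAI3 was flagged well above background on 0 of 7 arrays. Lists of jasmonate, auxin, cell division, cuticle and other genes held none of the 111, but each list is a selection. The auxin list left out SAUR57 and SAUR75, small auxin-up RNA genes that are among the 111. In all, 5 of the 111 genes were on a pathway list and none was on a marker list.

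Among the cytochrome P450 enzymes, 3 of 230 genes on the array belonged to the 111. CYP82C4 hydroxylates a coumarin in iron-deficient roots. It had -8.38, -8.38, -8.44 and -8.24 in 35S:MYB106VP16, against -5.60, -5.48 and -4.86 in wild type, and was at least 4.93-fold lower. Its 35S:MYB106VP16 values had an SD of 0.08, the smallest of the 111 genes. CYP712A1 had -7.35, -8.39, -7.78 and -7.02 in 35S:MYB106VP16, against -4.21, -5.62 and -4.09 in wild type, with 1 of 4 arrays flagged. CYP71A24 had -8.21, -8.08, -9.13 and -7.01 in 35S:MYB106VP16, against -5.10, -5.72 and -5.82 in wild type, again with 1 of 4 flagged. All 3 were separated between groups, and CYP712A1 and CYP71A24 were brightest on replicate 4 of the 35S:MYB106VP16 arrays.

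Genes of nutrient handling and transport included PAP14, a purple acid phosphatase, which releases phosphate from organic esters. PAP14 had -8.34, -7.88, -9.70 and -8.06 in 35S:MYB106VP16, against -5.59, -4.35 and -5.73 in wild type, and was at least 5.25-fold lower. BOR4, a boron exporter that confers tolerance to high boron, had -7.81, -7.50, -8.55 and -8.56 in 35S:MYB106VP16, against -5.03, -5.68 and -5.91 in wild type, and was at least 4.09-fold lower. Neither gene overlapped between groups. A second probe of PAP14 gave -9.70 in 35S:MYB106VP16 and -6.78 in wild type as means, while a second probe of BOR4 reached that flag on 0 of 7 arrays and gave -9.66 and -9.75. The BOR4 result therefore rests on 1 of 2 probes.

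GLR2.2 and GLR2.3 are glutamate receptor-like cation channels and lie side by side on chromosome 2. GLR2.2 had -8.66, -7.34, -8.72 and -8.02 in 35S:MYB106VP16, against -5.92, -6.18 and -5.74 in wild type, with 1 of 4 arrays flagged. GLR2.3 had -8.70, -7.80, -7.38 and -7.87 in 35S:MYB106VP16, against -6.67, -6.35 and -6.90 in wild type, and was at least 1.87-fold lower. The 2 genes were lower together, and as with the terpene synthase pair, signal shared between paralogs could not be assessed. They were 2 of 17 glutamate receptor-like genes on the array, of which 11 were well above background on all 7 arrays.

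**Figure D4:**
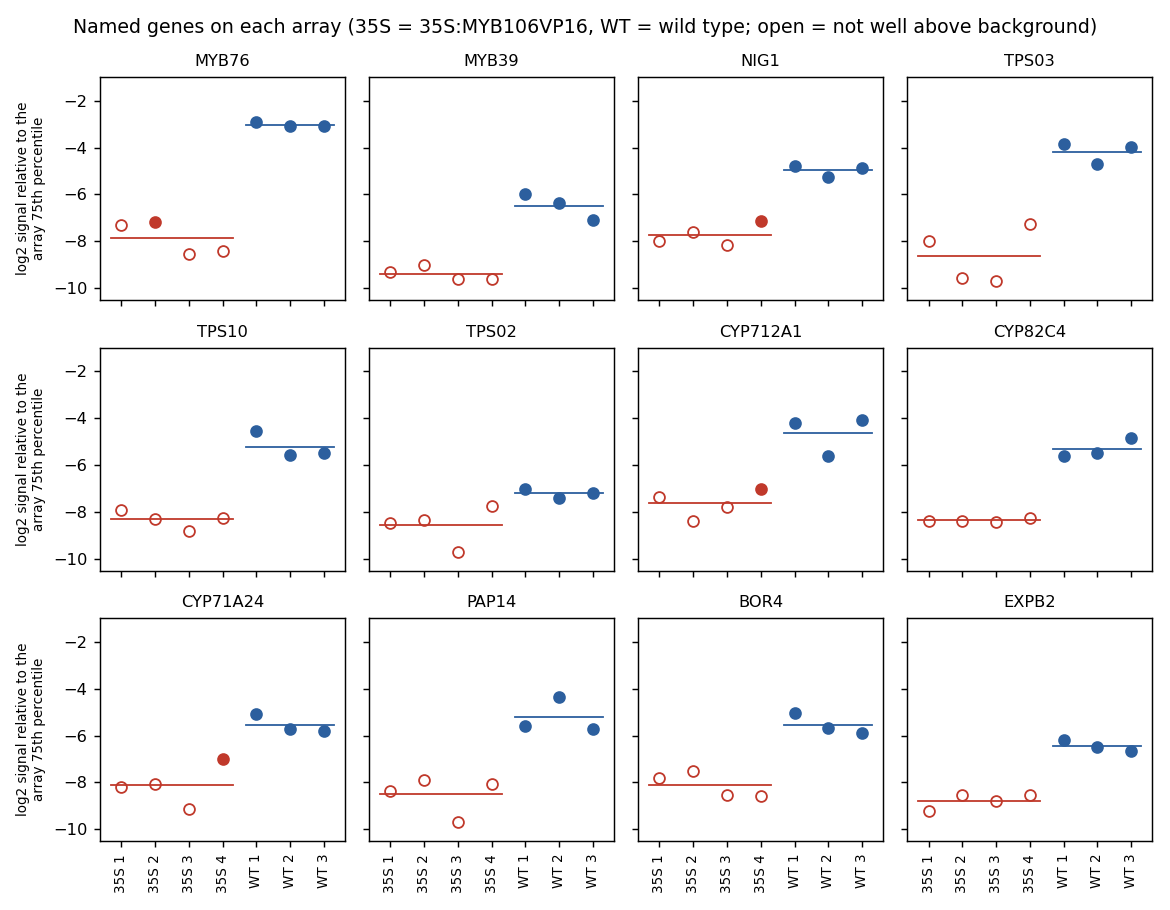
Log2 signal relative to the 75th percentile (vertical axis) of 12 named genes on each of the 4 35S:MYB106VP16 arrays (left of each panel) and 3 wild-type arrays (right); filled points are well above background, open points are not, and lines are group means. The groups are separated in every panel, most widely for MYB76 and TPS03. The same arrays chose these genes, so nothing is read from the separation.

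Cell-wall and sugar genes were EXPB2, ATCSLA15 and CWINV5. EXPB2, a beta-expansin, which loosens cell walls, had -9.21, -8.55, -8.80 and -8.54 in 35S:MYB106VP16, against -6.17, -6.50 and -6.65 in wild type, and was at least 2.26-fold lower. It was the only 1 of 29 expansins on the array to meet the rule. ATCSLA15, of the cellulose synthase-like A family of mannan synthases, had -8.14, -8.38, -7.67 and -7.86 in 35S:MYB106VP16, against -5.92, -5.98 and -6.21 in wild type, and was at least 2.99-fold lower. CWINV5, a cell-wall invertase, which splits sucrose, had -9.36, -9.68, -8.35 and -6.98 in 35S:MYB106VP16, against -5.96, -6.72 and -6.42 in wild type. CWINV5 varied most among the 35S:MYB106VP16 arrays of these 3, with an SD of 1.22, and replicate 4 was its flagged array. None of the 3 overlapped between groups.

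Other named genes had roles outside these groups. PUB19, a U-box ubiquitin ligase of abscisic acid and drought responses, averaged -7.94 ± 0.81 in 35S:MYB106VP16 and -5.86 ± 0.03 in wild type (SD, n = 4 and 3), with 1 of 4 arrays flagged. CRH1, a MORC-type ATPase also called MORC2, was at least 2.56-fold lower, and ATS3, a seed gene, at least 2.55-fold. The summed linear level of 17 seed markers, relative to the 75th percentile signal, was 0.368 to 1.38 in 35S:MYB106VP16 and 0.117 to 0.143 in wild type, with 5 of the 17 flagged on 0 of 7 arrays, and their part in the levels of PHE1 and ATS3 was not tested. BARD1, a RING protein of DNA repair, was at least 2.21-fold lower and scpl23, a serine carboxypeptidase-like protein, at least 2.17-fold. MEE69, also annotated as the methyl esterase MES20, averaged -7.59 ± 0.44 in 35S:MYB106VP16 and -5.76 ± 0.31 in wild type, with 1 of 4 flagged. In all of these genes the groups did not overlap.

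Most of the 111 genes carry no gene symbol in the annotation used: 40 had a symbol and 71 only a locus name. Several genes without a symbol differed as much as the named genes, and are mentioned because of their values. AT1G24147 had -8.32, -9.99, -7.76 and -7.23 in 35S:MYB106VP16, against -3.72, -3.78 and -3.33 in wild type, with replicate 4 flagged. AT1G19320 had -8.97, -8.34, -8.51 and -7.82 in 35S:MYB106VP16, against -3.78, -4.65 and -4.45 in wild type, and was at least 9.998-fold lower. AT4G29610 had -7.21, -7.27, -8.69 and -8.79 in 35S:MYB106VP16, against -4.49, -4.06 and -3.86 in wild type. None of these 3 overlapped between groups.

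A few genes of the 111 followed single arrays more than genotype. MEE48, named for arrest of the embryo in maternal mutants, had -3.84, -8.25, -9.91 and -9.89 in 35S:MYB106VP16, against -1.94, -6.04 and -1.79 in wild type. Replicate 1 of 35S:MYB106VP16 exceeded wild-type replicate 2, and the difference of -4.72 became -6.09 without 35S:MYB106VP16 replicate 1 and -6.11 without wild-type replicate 2. AT5G62080 had -3.75, -7.36, -8.20 and -7.95 in 35S:MYB106VP16, against -4.29, -5.79 and -5.99 in wild type. AT5G44540, mentioned because of its values, had -3.79, -7.89, -8.49 and -9.11 in 35S:MYB106VP16, against -5.00, -7.35 and -5.39 in wild type. In both, 35S:MYB106VP16 replicate 1 was the brightest of all 7 arrays, and the differences of -1.46 and -1.40 became -2.48 and -2.58 without it.

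Some markers of flowers and anthers varied across the same arrays. MS2, a fatty acyl reductase of the tapetum, had -2.92, -2.50, -7.78 and -7.54 in 35S:MYB106VP16, against -2.72, -8.32 and -3.66 in wild type. AMS, a bHLH factor of the tapetum, had -5.08, -6.09, -7.81 and -7.96 in 35S:MYB106VP16, against -4.49, -6.27 and -5.68 in wild type. The floral organ gene AP3 had -3.77, -3.59, -5.29 and -4.96 in 35S:MYB106VP16, against -2.96, -4.62 and -3.63 in wild type. Replicate 1 of 35S:MYB106VP16 and replicates 1 and 3 of wild type were high for MEE48, MS2, AMS and AP3. The 35S:MYB106VP16 replicate 2 was high for MS2 and AP3 but not for MEE48. For AMS it lay near wild-type replicate 2, at -6.09 against -6.27. These 3 markers are mentioned because of their values, and not every marker list followed them as a whole. Of the other flower markers, AG was flagged on 35S:MYB106VP16 replicates 1 and 2 but not on 3 and 4. STK was flagged on 35S:MYB106VP16 replicates 3 and 4 but not on 1 and 2.

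Over the whole lists, linear levels relative to the 75th percentile signal were summed. The sum of 12 flower markers was 3.41, 2.88, 2.02 and 2.48 in 35S:MYB106VP16, against 3.53, 2.06 and 2.89 in wild type. It was lowest on 35S:MYB106VP16 replicates 3 and 4 and wild-type replicate 2, as were MS2, AMS and AP3. The sum of 7 pollen and tapetum markers was 0.649, 0.593, 0.494 and 0.539 in 35S:MYB106VP16, against 0.818, 1.01 and 1.09 in wild type. By this sum wild-type replicate 2 lay above replicate 1, unlike MS2 and AMS, which belong to the list. By the number of list genes well above background it lay below. That number was 3, 3, 1 and 1 on the 35S:MYB106VP16 arrays, against 5, 2 and 4 on the wild-type arrays. Of the 7, 2 genes, VGD1 and AGL66, were flagged well above background on 0 of 7 arrays. The part of flower tissue in the levels of MEE48, AT5G62080, AT5G44540 and other genes was not tested.

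**Figure D5:**
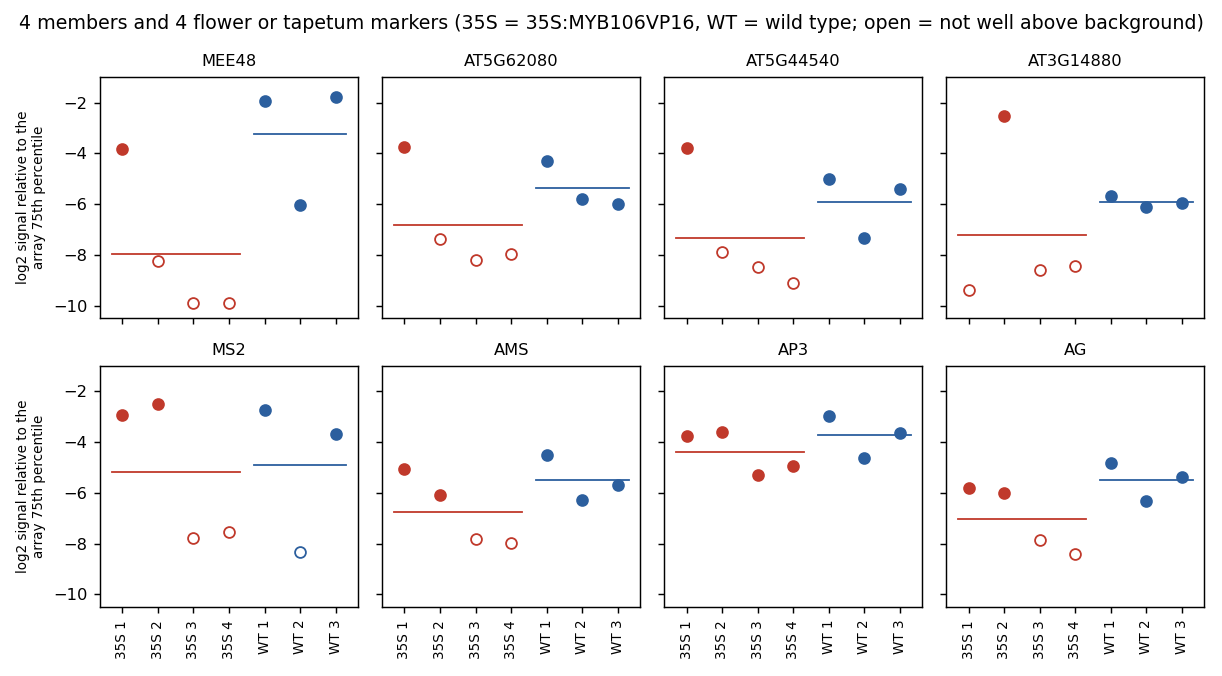
Log2 signal relative to the 75th percentile (vertical axis) of 4 of the 111 genes (top) and of the flower and tapetum markers MS2, AMS, AP3 and AG (bottom) on each 35S:MYB106VP16 array (left of each panel) and wild-type array (right); open points are not well above background and lines are group means. MEE48 and MS2 are low on 35S:MYB106VP16 replicates 3 and 4 and on wild-type replicate 2. On 35S:MYB106VP16 replicate 2 MEE48 is low and MS2 is high, and AT3G14880 is high on that array alone.

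The wild-type replicates also differed among themselves. Wild-type replicate 1 was the brightest of the 3 for 64 of the 111 genes and replicate 2 the dimmest for 53. AT5G65340, mentioned because of its values, had -2.32 on wild-type replicate 1 beside -6.28 and -6.23 on the others, and its difference of -3.42 was -2.11 without that replicate. AT1G65760, likewise, had -3.21 on wild-type replicate 2 beside -7.45 and -6.67, and its difference of -3.34 was -2.06 without it. Leaving out each array in turn, 110 of the 111 genes kept a negative difference in every case. The exception was AT4G34300, mentioned for that reason, at -0.16 with all arrays and 0.04 without 35S:MYB106VP16 replicate 3. The rule chose the genes on these same arrays, which nearly fixes the sign in advance, so nothing is read from the count of 110.

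The dimmest and least secure genes lay near the edge of the rule. AT1G61575, AT3G28600 and AT3G56780 had the lowest wild-type means, at -7.31, -7.29 and -7.29, with 35S:MYB106VP16 means of -7.67, -8.43 and -7.72. AT1G61575 overlapped between groups because 35S:MYB106VP16 replicate 3 read -6.38. Of the genes flagged on 1 of 4 arrays, AT5G62080, the glutamate dehydrogenase gene GDH3 and AT3G14880 had the highest 35S:MYB106VP16 means, at -6.81, -7.17 and -7.23. Just outside the rule, AT1G30190 had -8.21, -6.51, -9.78 and -7.29 in 35S:MYB106VP16, against -5.01, -5.69 and -5.00 in wild type, with 2 of 4 arrays flagged. AT2G35075 and AT3G62499, also flagged on 2 of 4, averaged -7.96 and -7.89 in 35S:MYB106VP16, against -6.17 and -7.39 in wild type.

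Second probes were available for 14 of the 111 genes. On the second probe, 7 genes met the same rule and 13 were lower in 35S:MYB106VP16, while for 5 it was never flagged well above background. CYP712A1 was among these 5, with second-probe means of -8.92 in 35S:MYB106VP16 and -8.28 in wild type. TPS03 was -8.69 in 35S:MYB106VP16 and -5.56 in wild type by its second probe, and AT3G13840 -9.01 and -5.86. No second probe was well above background on all 7 arrays. The 2 probes of a gene were measured on the same arrays and are not independent samples.

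The 111 genes were spread over the genome, with 28 on chromosome 1, 19 on chromosome 2, 21 on chromosome 3, 21 on chromosome 4 and 22 on chromosome 5, or 0.458% to 0.675% of the genes tested on each. By the annotation, 11 pairs lay within 10 genes of each other, and TPS02 with TPS03 and GLR2.2 with GLR2.3 were the only direct neighbours. The next genes on either side of the 111, which the rule did not choose, numbered 156 tested. Of these, 29.5% were lower and 33.3% higher in limma, beside 24.8% and 28.1% of all genes tested, and their median difference was 0.07. The flanking genes were thus called in both directions, and the part of chromosome position in the levels of the 111 was not tested. All 111 were protein-coding, with a median gene length of 1821 bases beside 2334 for the genes tested.

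By name, small families were represented by 1 to 3 genes. SAUR57 (AT3G53250) and SAUR75 were 2 of 74 small auxin-up RNA genes on the array, of which 57 were well above background on all 7 arrays. The class XI myosins XIA and XID, motors of organelle movement, were 2 of 13, of which 9 were well above background throughout. MYB76 and MYB39 were 2 of 125 MYB factors. These families were picked after the genes were known, and the counts carry no test.

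The converse pattern was more frequent. In all, 230 genes were well above background on all 4 35S:MYB106VP16 arrays and on at most 1 of 3 wild-type arrays, against 111 in the direction described here. With the strictest form on both sides, 122 genes were flagged on all 4 35S:MYB106VP16 arrays and on 0 of 3 wild-type arrays, while 58 were flagged on all 3 wild-type arrays and on 0 of 4 35S:MYB106VP16 arrays. The groups differ in size, so these counts are not on equal terms. Of the 19829 genes well above background on all 3 wild-type arrays, the 111 were 0.560%, and 19507 were also well above background on all 4 35S:MYB106VP16 arrays. A dim spike-in transcript was brighter on the 35S:MYB106VP16 slide, at -5.80 to -5.55, than on the wild-type slide, at -6.73 to -6.30, and its part in these counts was not tested.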

How the data were processed

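RNA of whole seedlings was measured on 7 single-colour Agilent arrays. Per the file headers and the submitters' processing notes, the authors' spot intensity came from Agilent Feature Extraction 9.1.3.1, with background subtraction and spatial detrending, and the deposited 0 or 1 flags were used as given. The authors' deposited series table is the same intensity divided by 1 constant per group, on a linear scale without centring, with column medians of 0.331 to 0.438, and served as an alternative only. The number of arrays limits the precision.

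Outlier spots were dropped, replicate spots were averaged on the log2 scale, and each array's 75th percentile was subtracted. No spot was saturated. Probes were named through unversioned RefSeq transcripts of the TAIR10.1 gene table: 34185 of 36022 probes with an accession matched, giving 25347 genes, and 9418 probes had no name. A gene was represented by its brightest probe, averaged over the 7 arrays. A probe counted as well above background where a share of 0.5 or more of its spots was so flagged. No coordinates are printed, since no build is named in the files.

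For the 20509 genes so flagged on 3 or more arrays, the 2 genotypes were compared in limma 3.58.1 under R 4.3.3 (functions lmFit, then eBayes) without covariates. Calls used a threshold of 0.05 on p-values adjusted by Benjamini-Hochberg. The fit was tested on simulated data. The members of the set, the 24 pathway lists, the 7 marker lists and the alternatives were chosen with earlier results of these data known. Genes were named by rule: those in a list, the 25 with a symbol and the largest bound, 3 each at the edges of the rule, 3 with the lowest wild-type mean, direct neighbours, those with another probe well above background on all 7 arrays (there were 0), and MYB106 and MYB16. MYB16, the closest homolog of MYB106, was lower by 1.23 ± 0.22 (SE, log2; limma adjusted p = 0.00287). Alternatives changed the scaling, background correction, dim-probe filter, representative probe, replicate block and each replicate in turn.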

Additional observations from a re-analysis of the deposited data

Results flagged for a closer look

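In 39 groups of 4 values, 1 per named gene and summary in 35S:MYB106VP16, 1 array stood far from the other 3 in 2 cases. Chance gives about 1 in 20 for groups not chosen on their values. Most of the named genes, AT3G14880 among them, were chosen on signals of these arrays. That rate therefore does not hold for them, and nothing is read from the count. AT3G14880 read -2.52 on 35S:MYB106VP16 replicate 2, where the other 3 read -9.40 to -8.43, and -5.70, -6.13 and -5.95 in wild type; that array was well above background. Its difference was -1.31 with all arrays and -2.88 without that one. AT3G28600 read -9.43 on 35S:MYB106VP16 replicate 1, where the other 3 read -8.17 to -7.99, and none of the 4 was well above background.

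Outside the named genes, 41 of 9418 probes with no gene name met the same rule, with a median difference of -1.31, and 257 met the converse. They were well above background on all 3 wild-type arrays and on at most 1 of 4 35S:MYB106VP16 arrays.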

How the results depend on the processing

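With another scaling the count of genes lower in 35S:MYB106VP16 moved from 5083 to 2277 with the authors' deposited table and 15627 with spike-in scaling, an alternative chosen after seeing the data, and genes higher from 5768 to 859 with the spike-in scaling. Pathway genes lower moved from 226 to 145 and 400 in the same order, and pathway genes higher fell to 37 with spike-in scaling. The median difference of the 111 genes was -1.54, and became -1.76 with quantile normalization, -0.31 with normexp and an offset of 50, -1.33 with the deposited table and -2.28 with spike-in scaling, while the median of all genes tested was 0.23 with that table and -0.72 with that scaling. The offset adds a constant to each signal and so narrows differences between dim signals by construction. Without each replicate in turn the median difference was -1.69 to -1.46, with 3878 to 5122 genes lower and 4226 to 5498 higher. The set then counted 122 to 162 genes and held all 111 in every case, because leaving out an array loosens the rule. The set was 58 genes when no 35S:MYB106VP16 array could be flagged, and 58 by the weaker flag, of which 2 were shared with the 111 (3.45% of that set and 1.802% of the 111). It was 112 with probes chosen on wild type and 158 when any probe could meet the rule. Over 456 values of 38 named genes, 63 moved by more than the replicate spread and 1 changed sign, AT3G14880 at 0.085 with normexp. Of the 111 genes left without 1 array in turn, AT4G34300 changed sign, at 0.04 without 35S:MYB106VP16 replicate 3. Deviations from the group mean correlated across genes at 0.18, -0.03 and -0.08 for same-numbered arrays. For differently numbered arrays the correlations ran from -0.31 to 0.17. With so few arrays these values cannot settle whether the numbers pair the samples. With the replicate block 4470 genes were lower and 4596 higher. Members lie near the detection limit, so signal over background limits every size given for them.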
